A study of Mus musculus with 4 samples.

Results

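The Gimap genes encode GTPases of the immunity-associated protein family and were followed here as 8 named genes: Gimap1, Gimap3, Gimap4, Gimap5, Gimap6, Gimap7, Gimap8 and Gimap9. All 8 were found among the 19938 genes read from the arrays, each through 1 probe set that is paired with its symbol alone, and the table held 0 further Gimap genes. RNA came from naive CD8 T cells of the spleen, purified by flow cytometry, of BALB/c mice. One group carried a knockout of Klf13, which encodes a DNA-binding zinc-finger protein of the KLF family (2 arrays), and the other was wild type (2 arrays). The age of the mice, the deleted part of Klf13, the number of backcrosses and whether the arrays of a group stand for separate animals are not stated in the labels, so p-values here refer to the spread among these particular arrays, which may be technical.

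GIMAP proteins bind GTP through a domain shared with plant AIG1 proteins, and several are anchored in membranes of lysosomes, the endoplasmic reticulum or the Golgi. They are found mainly in lymphocytes, where loss of certain members shortens the life of resting T cells. In the mouse their genes lie side by side on chromosome 6, away from Klf13 on another chromosome.

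In the order of the RefSeq table for GRCm38.p6 the genes ran Gimap8, Gimap9, Gimap4, Gimap6, Gimap7, Gimap1, Gimap5 and Gimap3, with no other measured gene between them. Gimap6 and Gimap3 are read from the minus strand and the other 6 from the plus strand. KLF and SP factors are known to bind CACCC elements and GC boxes. KLF13 is known to bind a C-rich element of the Ccl5 promoter with the core CTCCC. These cores and the GC box GGGCGG were searched on both strands of the 300 bases around each start site (RefSeq, GRCm38.p6, strain C57BL/6J, which can differ from BALB/c), with matches that share bases counted separately. The 8 Gimap genes had 9 windows, 2 of them for Gimap8. The CACCC core was present for 5 of the 8 genes and in 6 of the 9 windows, against 57.5% of 32851 promoter windows of the same length. The Ccl5-type core was present for 4 Gimap genes and in 5 of the 9 windows (71.0% of all windows). The GC box was present for 2 genes, in 2 windows (35.7% of all windows). The RUNX-type core TGTGGT, also searched, was present for 3 Gimap genes, in 3 windows (16.8% of all windows). It is not marked in the sequences shown. These matches describe the letters and are not binding sites. Sequences are shown for Gimap9, which had the largest difference of the family, for Gimap5, the member with a positive difference, and for Gimap3 with its neighbour Tmem176b, which lies next to it and rose. Capitals mark the 3 KLF and SP motifs on either strand, and each sequence runs 5′ to 3′ on the strand of its gene.
Gimap9 promoter, chr6:48675885-48676184, plus strand: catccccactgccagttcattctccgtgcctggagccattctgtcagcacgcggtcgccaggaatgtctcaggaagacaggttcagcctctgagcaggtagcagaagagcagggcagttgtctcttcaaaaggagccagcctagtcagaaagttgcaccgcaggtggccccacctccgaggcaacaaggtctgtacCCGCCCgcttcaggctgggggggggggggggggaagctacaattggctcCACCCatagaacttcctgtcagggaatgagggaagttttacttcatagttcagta
Gimap5 promoter, chr6:48745947-48746246, plus strand: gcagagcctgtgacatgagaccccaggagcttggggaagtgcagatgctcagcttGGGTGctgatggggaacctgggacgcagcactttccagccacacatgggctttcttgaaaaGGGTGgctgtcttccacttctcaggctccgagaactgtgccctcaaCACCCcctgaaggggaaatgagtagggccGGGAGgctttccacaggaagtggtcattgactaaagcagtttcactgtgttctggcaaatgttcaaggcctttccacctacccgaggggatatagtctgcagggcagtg
Gimap3 promoter, chr6:48770802-48771101, minus strand: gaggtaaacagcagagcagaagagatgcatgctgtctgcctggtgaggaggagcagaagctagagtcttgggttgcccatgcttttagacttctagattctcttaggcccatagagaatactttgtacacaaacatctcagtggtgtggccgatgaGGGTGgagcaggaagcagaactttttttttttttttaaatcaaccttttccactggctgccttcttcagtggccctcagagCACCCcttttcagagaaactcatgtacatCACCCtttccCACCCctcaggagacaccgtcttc
Tmem176b promoter, chr6:48841325-48841624, minus strand: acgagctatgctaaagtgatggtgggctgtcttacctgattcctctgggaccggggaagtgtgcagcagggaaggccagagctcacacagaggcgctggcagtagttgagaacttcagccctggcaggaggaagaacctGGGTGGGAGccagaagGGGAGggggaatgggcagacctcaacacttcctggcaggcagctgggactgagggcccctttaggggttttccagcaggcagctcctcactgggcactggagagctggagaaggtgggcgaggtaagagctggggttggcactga
The Gimap9 window held 1 CACCC core and 1 GC box, that of Gimap5 held 3 CACCC cores and 1 of the Ccl5 type, and that of Gimap3 held 4 CACCC cores. The Tmem176b window, the one of its 3 listed start sites that begins furthest upstream, held 1 CACCC core and 2 of the Ccl5 type.

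Values are deposited log2 probe-set values, so a difference of 1 is a 2-fold change. A probe set's level also reflects how well it binds, and levels of different Gimap genes are therefore not set against each other. Limma's moderated test of knockout against wild type called 448 of the 19938 genes (2.25%) at an adjusted p under 0.05 (Benjamini-Hochberg), 238 as higher in the knockout (1.19%) and 210 as lower (1.05%). The spread that this test used for each gene was drawn largely from all genes together (prior degrees of freedom 8.06 of a total of 10.06). Klf13 itself read 5.46 and 5.43 in the knockout against 7.01 and 7.15 in the wild type. Across genes the arrays correlated with r of 0.997 within the knockout pair, 0.998 within the wild-type pair and 0.994 to 0.996 between groups, and the SD of the gene-wise difference between knockout replicate 2 and wild-type replicate 2 (0.192) was close to that between the knockout arrays (0.191). Knockout replicate 1 stood apart among brighter genes: over the 4985 genes with the highest mean levels its median was 7.76, against 7.89 in knockout replicate 2 and 7.91 in each wild-type array. Of 8 measured CD8 T cell markers, limma called 0 higher and 0 lower (1 had an unadjusted p under 0.05), with mean values between 7.42 and 11.4. In bulk RNA, fewer cells of a type and less RNA per cell cannot be told apart.

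None of the 8 Gimap genes passed the test, and their differences ran from -0.27 for Gimap9 to 0.08 for Gimap5 (limma adjusted p between 0.196 and 0.914). Of the 8 members 7 had a negative difference, as had 45.9% of all genes and 73.2% of the 4985 brightest. At an unadjusted p under 0.05 there was 1 member, Gimap9, which is 12.5% of the family against 16.6% of all genes. The limma 95% intervals bounded every member well within 2-fold: the widest reach was -0.47 for Gimap9, a 1.39-fold change. Against a background of 2.25% of all genes and 2.07% of the 4985 brightest genes, a count of 0 among 8 is no result about the members.

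Gimap5 is needed for the survival of peripheral T cells, and its loss causes lymphopenia in rats and mice. Its probe set (10538142) read 6.87 and 7.02 in the knockout against 7.08 and 6.65 in the wild type. Both knockout values lay between the wild-type ones, which lay 0.43 apart, the widest gap within a pair for any member. The difference was 0.08 (SE 0.135, 95% interval -0.22 to 0.38, limma adjusted p = 0.817). Without wild-type replicate 2 it turned to -0.13, and without wild-type replicate 1 it was 0.29, so its sign rested on 1 array.

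Gimap3 is the closest relative of Gimap5 in the mouse, and its protein is membrane-anchored as well. Its values were 9.06 and 9.14 in the knockout and 9.22 and 9.19 in the wild type. Each knockout array was lower than each wild-type array, by a difference of -0.11 (95% interval -0.31 to 0.10, limma adjusted p = 0.618). As probes of closely related members can bind each other's transcripts, values of Gimap3 and Gimap5 are uncertain.

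Gimap1, which mature T and B cells require, read 8.12 and 8.25 in the knockout arrays against 8.20 and 8.22 in the wild type. The wild-type values lay between the knockout ones. The difference of -0.029 (95% interval -0.24 to 0.18, limma adjusted p = 0.914) was the smallest of the family, and its sign turned under a further quantile normalization (0.044), with centring on the 4985 brightest genes (0.052) and without knockout replicate 1 (0.035).

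Gimap4 encodes a GTPase that has been linked to T cell death. Its arrays gave 10.58 and 10.64 in the knockout and 10.76 and 10.73 in the wild type. The groups did not overlap, but the step was small, at -0.14 (95% interval -0.34 to 0.07, limma adjusted p = 0.504), which equals a 1.10-fold higher wild-type level.

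Gimap7, whose protein stimulates GTP hydrolysis by its relatives, stood at 7.96 and 8.03 in the knockout and 8.05 and 8.02 in the wild type, with overlapping groups and a difference of -0.036 (95% interval -0.24 to 0.17, limma adjusted p = 0.886). Gimap6, whose protein binds the autophagy protein GABARAPL2, stood at 10.35 and 10.39 in the knockout against 10.42 and 10.40 in the wild type. Its groups were separate, yet the difference was a similar -0.038 (95% interval -0.24 to 0.16, limma adjusted p = 0.879). The signs of both turned, to 0.042 for Gimap7 and 0.027 for Gimap6 under a further quantile normalization and to 0.045 and 0.043 with centring on the 4985 brightest genes.

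Gimap8 is the member with several GTP-binding domains in 1 protein. It read 8.34 and 8.57 in the knockout against 8.65 and 8.60 in the wild type. Knockout replicate 1 lay well below the other 3 arrays, and knockout replicate 2 close to the wild type. The difference was -0.17 (95% interval -0.40 to 0.06, limma adjusted p = 0.465), and without knockout replicate 1 it was -0.057.

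Gimap9 had the lowest p of the family, with a probe set (10538123) that read 8.65 and 8.73 in the knockout and 8.99 and 8.92 in the wild type. Each pair lay 0.08 apart, and the group means of 8.69 ± 0.05 (SD, n = 2) and 8.96 ± 0.05 (SD, n = 2) were separate. The difference of -0.27 (SE 0.09, 95% interval -0.47 to -0.06) gave, over all genes, a limma adjusted p = 0.196. Over the other settings its difference ran from -0.35 to -0.18, negative in each. It passed only when limma's variance was fitted with a trend and robust moderation (adjusted p = 0.0380), and the adjusted p ran up to 0.955 elsewhere.

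**Figure D1:**
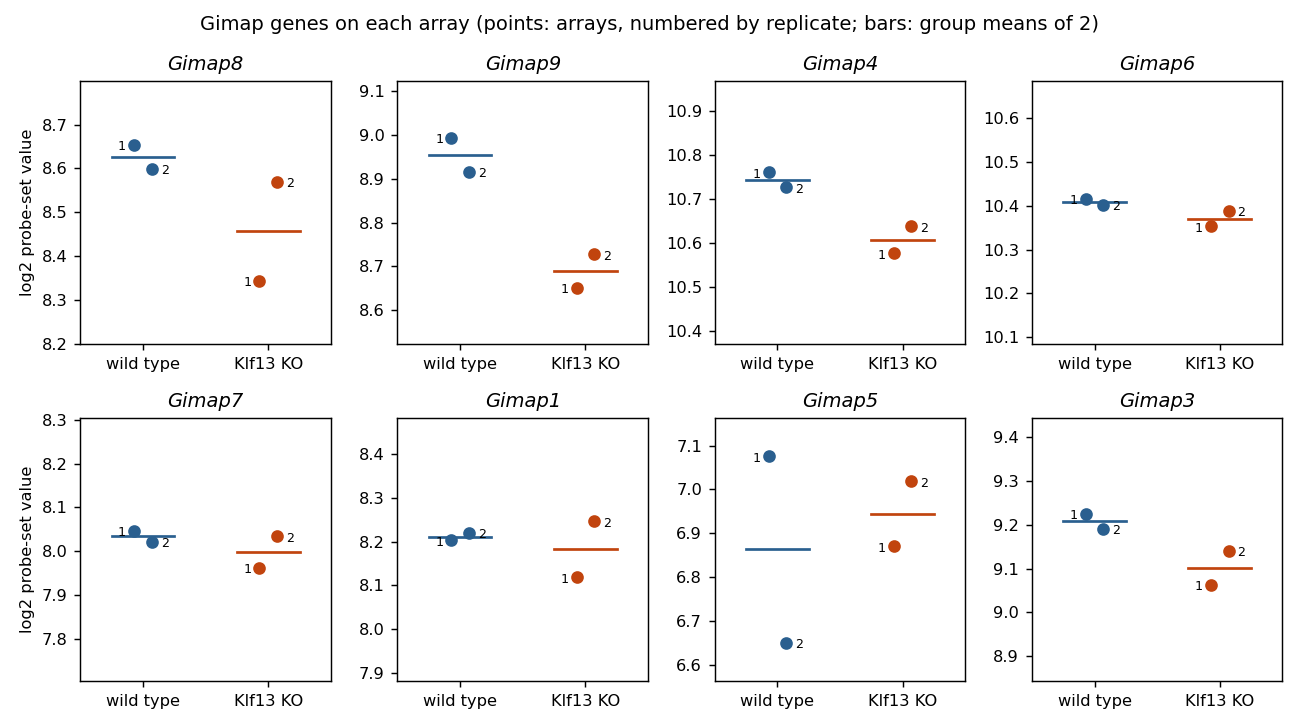
Log2 probe-set values of the 8 Gimap genes in chromosome order, on the vertical axis, for the 2 wild-type arrays (blue) and the 2 Klf13 knockout arrays (orange), with numbers for the replicate and bars for group means; all panels span the same height on the log2 scale. Gimap9 shows separate pairs 0.27 apart, while the wild-type pair of Gimap5 spans both knockout values.

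Differences between members were not tested. Values between -0.22 and -0.06 lay inside all 8 of the 95% intervals. The 3 members at one end of the cluster, Gimap8, Gimap9 and Gimap4, had the largest negative differences. Knockout replicate 1 was the lowest array for 7 of the 8 genes and wild-type replicate 1 the highest for 7. Among all genes these shares were 34.8% and 23.2%, and among the 4985 brightest genes 67.9% and 36.4%. The mean over the 8 genes was 8.74 in knockout replicate 1 and 8.92 in wild-type replicate 1. In knockout replicate 2 it was 8.85 and in wild-type replicate 2 it was 8.84.

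Gimap probe sets are bright, at percentiles 75.4 to 99.4 of all genes by mean level, and bright genes as a whole lay lower in the knockout. The median difference was -0.072 over the 8 members, -0.082 over the 4985 brightest genes and 0.015 over all 19938. In 5 of the 8 members (Gimap3, Gimap4, Gimap6, Gimap8 and Gimap9) the knockout values were both under the wild-type values, which was the case for 23.2% of all genes and 46.4% of the 4985 brightest. The reverse was found for 0 members, 24.4% of all genes and 12.6% of the 4985 brightest. With each array centred on the median of those bright genes, 4 members were lower and 4 higher, with a median of 0.0090. Centring on the median of all genes instead put all 8 below 0, with a median of -0.16 and 0 called.

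**Figure D2:**
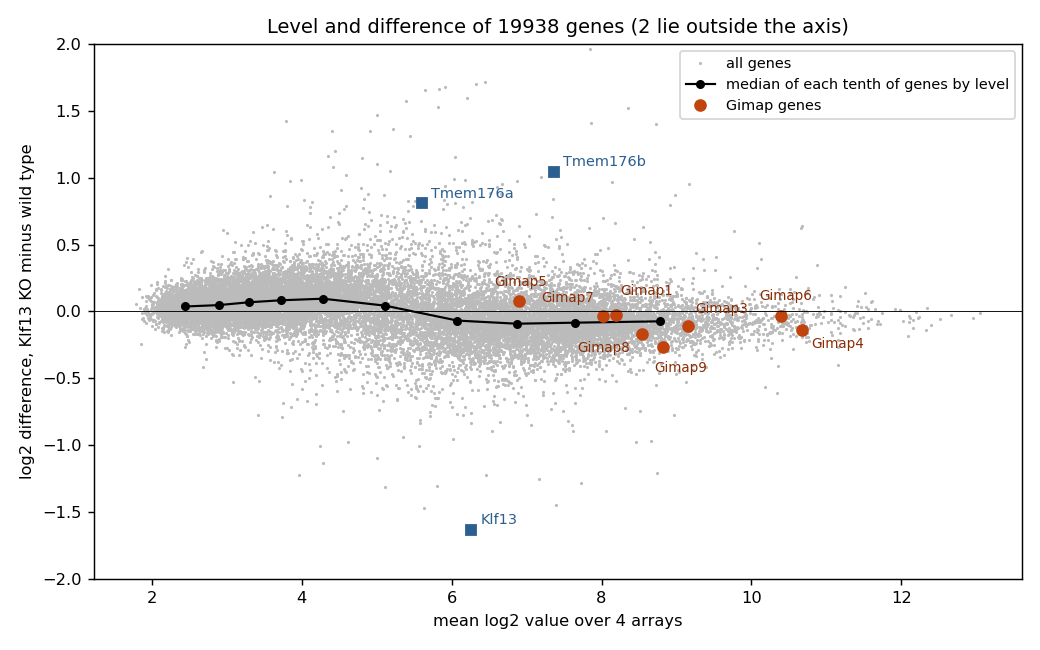
Difference of knockout minus wild type (log2, vertical) against mean log2 value over 4 arrays (horizontal) for all genes (grey), medians of 10 equal bins of genes by level (black line) and the Gimap genes (orange circles); squares mark Klf13, Tmem176a and Tmem176b. The line falls from 0.095 at a level of 4.28 to -0.092 at 6.87 and ends at 8.78. Gimap5, Gimap7, Gimap1 and Gimap8 scatter about its lower part, and Gimap9, Gimap3, Gimap6 and Gimap4 lie to the right of its end.

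Directly beyond Gimap3, the pair Tmem176b and Tmem176a rose. They encode related membrane proteins known from dendritic cells and from lymphocytes that carry the nuclear receptor RORγt. Tmem176b read 7.79 and 8.0 in the knockout arrays against 6.86 and 6.84 in the wild type, a 2.06-fold higher level (log2 difference 1.05, SE 0.10, limma adjusted p = 6.21e-04). Tmem176a read 5.85 and 6.17 against 5.14 and 5.26, a 1.75-fold higher level (0.81, SE 0.12, limma adjusted p = 0.00675). The groups were separate for both, and neither interval (0.82 to 1.27 and 0.55 to 1.07) overlapped that of any Gimap gene. Both calls were lost when all 35556 probe sets were tested singly (limma adjusted p = 0.0761 and 0.146) and held in the 11 other settings. In 4 of these 1 array is left out, and the lone array of its group is assumed to vary like the other pair. Their RefSeq gene models overlap. Set against Gimap3 on the same array, Tmem176b lay 1.15 higher in the knockout than in the wild type and Tmem176a 0.92 higher (exact permutation test, two-sided, p = 0.333 for each, the smallest that 2 arrays against 2 can give).

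The remaining 8 of the 10 flanking genes did not pass. On the side of Gimap8 the differences of Rarres2, Gm5111, Repin1, Zfp775 and AI854703 were 0.018, 0.086, 0.083, 0.24 and 0.086. On the other side those of Gm7932, Aoc1 and Doxl1 were 0.28, 0.32 and 0.014. That of Zfp775 was 0.063 without knockout replicate 1 and 0.42 without knockout replicate 2, and that of Gm7932 was 0.51 and 0.058. That of Aoc1 ran from 0.20 to 0.44 and that of Repin1 from 0.014 to 0.15 as 1 array was left out. All 10 were above 0 and 7 of the 8 Gimap genes below it. These neighbours include dim probe sets, which lay higher in the knockout as a whole. The signs of Rarres2 and Doxl1 turned under a further quantile normalization, and those of Rarres2, Doxl1, Gm5111 and Repin1 with centring on the median of all genes.

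**Figure D3:**
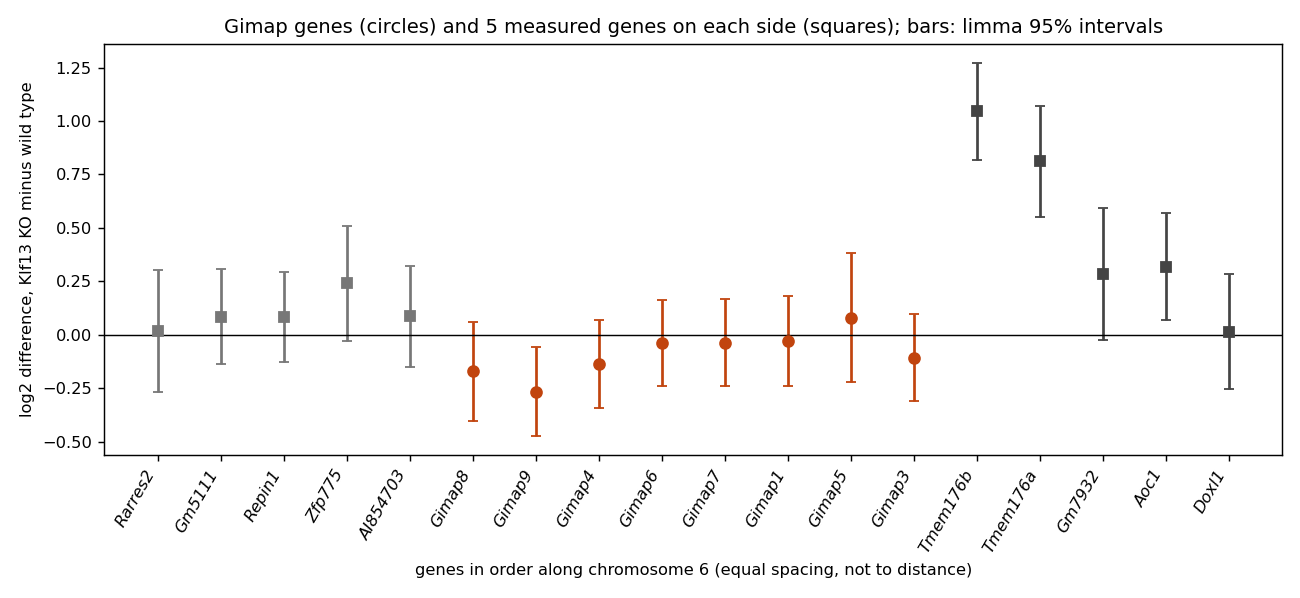
Log2 difference, knockout minus wild type, with limma 95% intervals for the 8 Gimap genes (circles) and 5 measured genes on each side (squares), in order along chromosome 6 and not to distance. The Gimap genes stay between -0.27 and 0.08, and the pair next to Gimap3 stands at 1.05 and 0.81.

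On these arrays, where 2.25% of all 19938 genes were called, markers of other cell types moved, with 19 called in all. When all probe sets were tested singly 16 of these calls were lost and those of Mpo, Elane and Eomes held; for Lyz2 the limma adjusted p was then 0.107. Centring on the 4985 brightest genes ended 8 of the 19, a further quantile normalization 4 (Itga2b, Mpeg1, Pf4 and Tyrobp). Without wild-type replicate 1 the calls of Cd244a, Csf1r, Itga2b, Pf4, St8sia6, Tnfsf8 and Tyrobp were lost, without knockout replicate 1 those of Itga2b, Tnfsf8 and Tyrobp, without knockout replicate 2 those of Itga2b and Tyrobp, and without wild-type replicate 2 that of Pf4. Of 12 myeloid and dendritic cell markers 3 rose (Lyz2 by 1.15, Mpeg1 by 0.84 and Csf1r by 0.58) and 9 did not pass, with a summed linear level of 255 to 286 in the knockout and 217 to 219 in the wild type. Of 12 neutrophil markers 4 rose (Mpo, Prtn3, Ctsg and Elane), with summed levels of 924 to 1008 against 298 to 347. Of 11 B cell markers Ighm (0.80) and Mzb1 (0.64) rose, with summed levels of 1192 to 1237 against 802 to 829. Other probe sets of Ighm differed by less, at 0.39 (10402864) and 0.49 (10403069). B cells carry Gimap transcripts too, and the part of these cells in the Gimap and Tmem176 values was not tested. Of 12 endothelial markers Adgrl4 rose (1.47), with summed levels of 403 to 435 against 390 to 423. Among 9 measured markers of NK cells, 2 rose (Tyrobp by 0.62 and Cd244a by 0.55). The 2 that fell are also carried by CD8 T cells (Eomes, -1.45, and Prf1, -0.89). Summed levels were 350 to 393 in the knockout and 621 to 651 in the wild type. A sum rests mostly on bright genes, and Prf1 was the brightest of the 9, whose median difference was above 0 (0.22). Of 8 CD4 T cell markers St8sia6 (0.55) rose and Cxcr5 (-1.13) and Tnfsf8 (-0.55) fell. Their summed levels were 334 to 365 against 393 to 405, with a median difference of 0.050. Among 7 markers of red cells and platelets the platelet genes Itga2b and Pf4 rose by 0.51 each, with summed levels of 477 to 510 against 495 to 506. The summed level of the 8 CD8 T markers was 9177 to 9398 in the knockout and 9523 to 9525 in the wild type. Median differences were 0.27 for the neutrophil, 0.14 for the myeloid, 0.23 for the endothelial and 0.24 for the B cell markers. The lowest differences in these lists were -0.12, -0.34, -0.35 and -0.062. For red cells and platelets the median was 0.13 and the lowest difference -0.31. An unadjusted limma p under 0.05, in either direction, was found for 6 of 12 neutrophil, 6 of 12 myeloid, 7 of 12 endothelial and 6 of 11 B cell markers. For NK cells these were 7 of 9, for CD4 T cells 5 of 8 and for red cells and platelets 4 of 7. The share over all genes was 16.6%. The lists were chosen with earlier results of these data known, so these counts are a description. No detection calls were used, so no marker was called absent.

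Genes whose products are reported to work with GIMAP proteins (BCL2 family members, GABARAP proteins and others) were read as a list. Of 11 measured, limma called 0 higher and 0 lower (1 had an unadjusted p under 0.05), and the median difference was -0.037. Closest to the threshold were Vamp7, a vesicle fusion protein (-0.23, limma adjusted p = 0.246), Bad, a pro-apoptotic BCL2 relative (-0.14, limma adjusted p = 0.503), and Bcl2, the founding survival protein (0.15, limma adjusted p = 0.506). Of 11 measured transcription regulators of T cell genes, such as Notch, RUNX and FOXO factors, 0 rose and 0 fell (0 had an unadjusted limma p under 0.05), with a median of 0.043. Over all genes 2.25% were called and 16.6% had an unadjusted p under 0.05, so counts of 0 among 11 are no result about either list. The 3 with the smallest p were Cbfb, the partner of RUNX factors (0.13), Lef1 (0.097) and Bcl11b (0.087).

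Of 17 measured genes of T cell survival and quiescence Dapl1 rose, at 8.55 ± 0.05 in the wild type and 9.42 ± 0.10 in the knockout (SD, n = 2, limma adjusted p = 0.00152). The other 16 did not pass, against 2.25% of all genes called, and the median was 0.019. An unadjusted limma p under 0.05 was found for 4 of the 17, against 16.6% of all genes. The call of Dapl1 was lost when all probe sets were tested singly (limma adjusted p = 0.0905). Il7r, the IL-7 receptor chain that sustains naive T cells, lay at 10.44 ± 0.01 in the wild type and 10.09 ± 0.05 in the knockout (SD, n = 2, difference -0.35, limma adjusted p = 0.0935). It passed in 5 other settings, among them the trend and robust fit (limma adjusted p = 3.22e-04). Ccr7, the lymph node homing receptor, differed by -0.27 (limma adjusted p = 0.181).

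The genes whose 4 array values ran most like those of Gimap9 were Nanp, a sialic acid phosphatase (r = 1.00, difference -0.30), the mast cell protease gene Mcpt1 (r = 1.00, difference -1.31) and Slc2a4rg-ps (r = 1.00, difference -0.31). They were picked as the highest r among the 5029 genes with at least the range of Gimap9 (0.34), over only 4 arrays. At the looser limit of an r above 0.99 there were 158 of these genes (3.1%). Within the family r with Gimap9 was 0.99 for Gimap4, 0.96 for Gimap3, 0.93 for Gimap6, 0.85 for Gimap8, 0.74 for Gimap7, 0.45 for Gimap1 and 0.0073 for Gimap5. The points share arrays and normalization, and these values are a description.

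**Figure D4:**
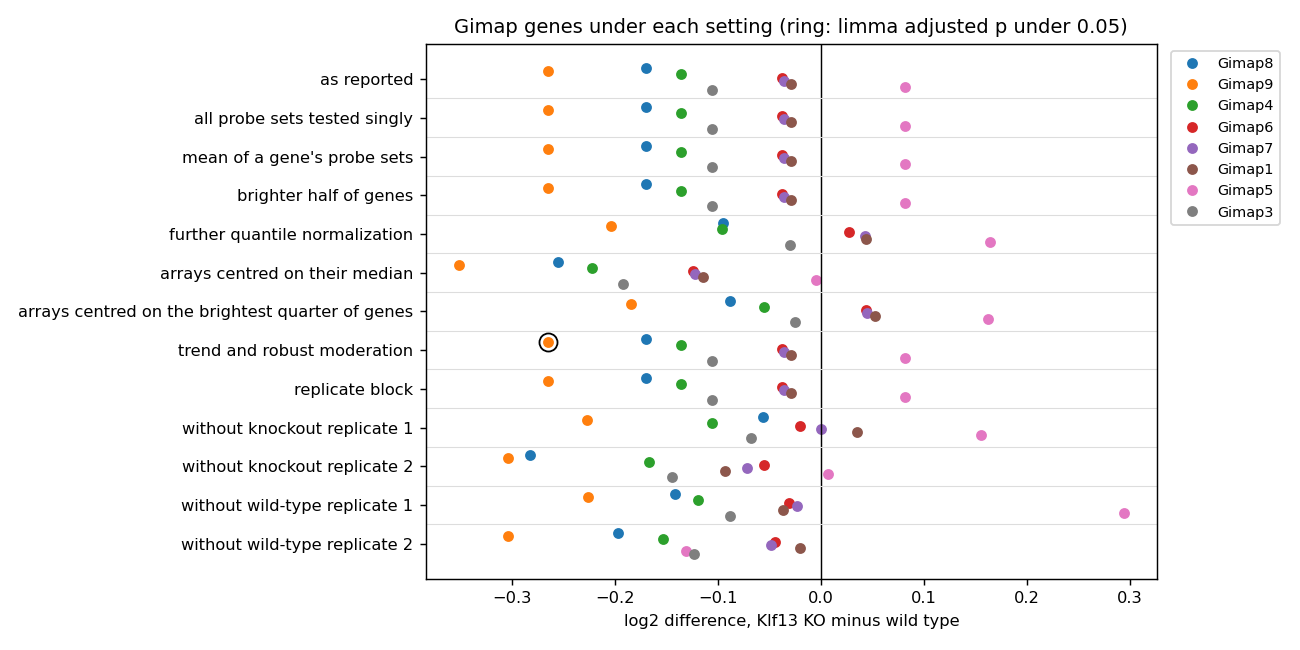
Log2 difference, knockout minus wild type (horizontal), of the 8 Gimap genes (colours) as reported and under 12 other settings (vertical), with a ring where the limma adjusted p was under 0.05. The single ring is that of Gimap9 with trend and robust moderation, and Gimap5 takes the right-most place in every row except that without wild-type replicate 2.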

How the data were processed

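RNA of 4 samples was hybridised to 1-colour Affymetrix whole-transcript arrays. The values in the deposited table are on a log2 scale and were made by the authors with RMA and Partek per the submitters' processing notes, with no versions. RMA's quantile normalization removes a shift of most genes in one direction. Smaller shifts between the arrays remained, and their direction depended on the probe sets read. Medians over all 35556 probe sets were 4.36 and 4.31 in the knockout and 4.37 and 4.34 in the wild type. Over the 19938 genes, with 1 probe set each, they were 4.71 and 4.66 in the knockout and 4.59 and 4.61 in the wild type. GEO's platform annotation paired 21789 of 35556 probe sets with 1 symbol, updated to RefSeq names of GRCm38.p6 (21698 matched). A gene's brightest single-gene probe set stood for it, with no filter. Knockout and wild type were compared over 19938 genes with limma 3.58.1 in R 4.3.3 (lmFit, eBayes, genotype only, two-sided, Benjamini-Hochberg, threshold 0.05; prior degrees of freedom 8.06), tested on simulated data. The 2 arrays per group limit precision. The members and lists were chosen with earlier results of these data known, and the promoter motif search was added after the data had been seen. Named were all Gimap genes, Klf13, 5 measured genes on each side, called list members (for pathway lists filled up to the 3 with the smallest p) and the 3 genes most like the member with the smallest p. Summed marker levels are sums of values taken back from the log2 to the linear scale. Alternatives changed the probe sets, level filter, normalization, moderation and replicate block, or left out 1 array. The list of other GTPase families is not reported here.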

Additional observations from a re-analysis of the deposited data

How the results depend on the processing

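The direction of Gimap9, Gimap4, Gimap8 and Gimap3 held in all 12 other settings, and 0 members were called in 11 of them. With a trend and robust moderation 1 member, Gimap9, was called. The median of the 8 members was -0.16 with arrays centred on their median, against -0.072. That centring turned Gimap5 (-0.0052), Rarres2 (-0.068), Gm5111 (-5.35e-04), Repin1 (-0.0028) and Doxl1 (-0.072). A further quantile normalization turned Gimap6 (0.027), Gimap7 (0.042), Gimap1 (0.044), Rarres2 (-0.056) and Doxl1 (-0.028). Centring on the 4985 brightest genes, chosen after the data had been seen, turned Gimap6 (0.043), Gimap7 (0.045) and Gimap1 (0.052). With 1 array left out, Gimap1 ran from -0.093 to 0.035, Gimap5 from -0.13 to 0.29, Rarres2 from -0.14 to 0.17, Gm5111 from -0.014 to 0.19, Doxl1 from -0.16 to 0.19 and AI854703 from -0.0088 to 0.18. The number of genes called, 448 with 53.1% higher, was 39 with all probe sets tested singly (0 of 10 neighbours called), 831 with trend and robust moderation (42.1% higher), 1088 with median centring (21.8% higher), 146 with centring on bright genes (74.7% higher) and 264 to 1536 without 1 array: 264 without knockout replicate 1 (69.3% higher), 1536 without knockout replicate 2 (42.6% higher) and 277 without wild-type replicate 1. With the replicate number as a block (replicate block) 1187 genes and 0 members were called. Deviations of same-numbered arrays from their group means were nearly uncorrelated across genes (r = 0.0074). With 2 arrays per group this is 1 comparison and cannot exclude a shared batch. The labels do not say whether the arrays were paired. Each Gimap gene has 1 single-gene probe set, so no choice among probe sets arose. The causes of these changes were not tested. Standard errors of the members were 0.091 to 0.135 on the log2 scale.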
